A study of Mus musculus with 5 samples.

Results

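The genes of the T cell receptor complex and of the signalling steps next to it were compared between CD4+ T cells of the inflamed colon and naive CD4+ T cells. The list was chosen by name and held 38 genes: the CD3 and zeta chains, the coreceptor Cd4 and costimulatory receptors, kinases, adaptors, enzymes and exchange factors, inhibitors and phosphatases, and the NFAT factors. Of these, 37 were analysed among 18193 genes in all, and 1 listed kinase was not analysed here. RNA was measured on 5 Affymetrix whole-genome mouse arrays. The CXCR6 Hi (n = 2 arrays) and CXCR6 Lo T cells (n = 2 arrays) were sorted as CD3+CD4+ cells from the colonic lamina propria (LP) of Rag1-/- mice, which have no mature T or B cells of their own, 6 weeks after they had received CD4+ CD45Rb Hi T cells. The 6 weeks come from the authors' footnote to their chemokine receptor values, while the general methods give 8 weeks. The array of CD45Rb Hi naive T cells (n = 1) held CD3+CD4+ cells that had not been transferred. The methods place these cells in the spleen and sorted them as CD25- and CD45RB high, while the array's labels name both spleen and LP. All cells were of the BALB/c strain, mice were 8 to 12 weeks old in the general methods, and CXCR6 was detected with its ligand fused to an antibody tail. How many mice gave each sample was not stated in the sources used here, so p-values measure the spread between these arrays only. Values are linear signals scaled so that the median of each array is 1, and the signals of different probe sets are not comparable with each other.

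The T cell receptor binds a peptide held by an MHC molecule and passes the signal through the CD3 chains and the zeta chain, whose tails are phosphorylated by Src family kinases. Zap70 docks on these tails and phosphorylates the scaffolds Lat and Lcp2 (SLP-76), which gather phospholipase C-gamma 1, Ras exchange factors and further adaptors, and calcium then brings NFAT factors into the nucleus. Costimulation through Cd28 adds to the signal, and some phosphatases and ubiquitin ligases restrain it. In transfer colitis the CD4+ T cells are known to respond to antigens of the gut bacteria.

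The Cd3g, Cd3d and Cd3e genes lie together on chromosome 9. Their sequences just before the start site are given here because 2 of the 3 genes were called lower in LP T cells, and those of Sos1 and Rasgrp1 because these had the largest fall against naive T cells and the largest difference between the subsets. All were taken from RefSeq for GRCm38.p6, whose table held 30 of the 37 genes, and each stops at the edge of the gene, written from 5′ to 3′ on the gene's strand. The windows were chr9:44980432-44980681 (minus strand) for Cd3g, chr9:44981536-44981768 (plus) for Cd3d, chr9:45009664-45009861 (minus) for Cd3e, chr17:80480454-80480703 (minus) for Sos1 and chr2:117342878-117343127 (minus) for Rasgrp1. Capitals mark the letters of the NFAT core, GGAAA or TTTCC on the other strand.
Cd3g: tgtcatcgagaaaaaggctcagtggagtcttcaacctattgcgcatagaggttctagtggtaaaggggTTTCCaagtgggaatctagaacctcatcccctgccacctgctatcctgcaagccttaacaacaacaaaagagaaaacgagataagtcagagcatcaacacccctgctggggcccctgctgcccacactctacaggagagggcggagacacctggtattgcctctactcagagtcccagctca
Cd3d: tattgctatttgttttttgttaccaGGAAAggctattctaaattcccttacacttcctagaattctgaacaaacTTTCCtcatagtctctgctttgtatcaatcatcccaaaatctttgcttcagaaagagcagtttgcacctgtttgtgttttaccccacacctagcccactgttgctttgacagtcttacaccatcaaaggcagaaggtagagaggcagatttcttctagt
Cd3e: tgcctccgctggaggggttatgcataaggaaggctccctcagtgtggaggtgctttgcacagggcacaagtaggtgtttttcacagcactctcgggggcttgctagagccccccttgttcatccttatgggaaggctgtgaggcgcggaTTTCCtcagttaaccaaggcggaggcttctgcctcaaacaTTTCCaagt
Sos1: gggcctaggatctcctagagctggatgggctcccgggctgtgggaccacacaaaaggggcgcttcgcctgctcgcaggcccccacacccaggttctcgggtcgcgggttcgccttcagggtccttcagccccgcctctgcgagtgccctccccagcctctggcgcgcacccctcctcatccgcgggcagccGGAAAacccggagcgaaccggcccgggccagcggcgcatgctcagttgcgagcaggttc
Rasgrp1: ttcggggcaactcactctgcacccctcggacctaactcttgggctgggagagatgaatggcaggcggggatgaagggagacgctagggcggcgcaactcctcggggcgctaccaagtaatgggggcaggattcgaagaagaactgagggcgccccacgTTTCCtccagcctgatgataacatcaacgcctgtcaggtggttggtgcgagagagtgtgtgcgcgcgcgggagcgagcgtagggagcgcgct
The NFAT core was found once in each of the Cd3g, Sos1 and Rasgrp1 windows and 2 times in those of Cd3d and Cd3e, and 55.6% of 32851 mouse promoter windows of 250 bases held it. The AP-1 motif TGANTCA, present in 6.75% of all windows, was in none of the 5. The RUNX motif TGTGGT or ACCACA, present in 14% of all windows, was found only in that of Sos1. The E-box CANNTG, present in 66.2%, was found 3 times before Cd3g, 1 time before Cd3d, Sos1 and Rasgrp1, and 0 times before Cd3e. A match is a match of letters and does not show a bound site. The start sites of Cd3g and Cd3d lie 1355 bases apart on opposite strands.

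The LP T cells held more Cd28, Fyn, Grap2, Sh2d2a, Ptprc and Ptpn22 RNA than naive T cells and less Cd3d, Cd3e, Plcg1, Prkcq and Sos1 RNA. These were 6 higher and 5 lower genes of 37 at an adjusted p under 0.05 in limma over all genes, and 26 did not pass. The calls made up 29.7% of the 37 genes, near the 33.9% of all 18193 genes that passed in this comparison (15.1% higher, 18.8% lower). All 37 genes had a mean signal of at least 4, and among the 7552 genes this bright 40.8% passed, 13% as higher and 27.8% as lower. The median log2 difference of the 37 genes was 0.16, against -0.14 over all genes and -0.41 over the genes as bright. With quantile normalization in place of the median, these medians were 0.20, -0.0039 and 0.044, and 7 genes were called higher and 5 lower (27.9% of all genes passed). All 4 LP arrays lay above the naive array for 15 of the genes (35% of all genes) and below it for 16 (40.9% of all genes), with 6 genes on both sides.

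Fewer genes were called when an LP array was left out. Without either CXCR6 Hi array only Cd28 passed (adjusted p from limma), where 9.72% and 10.7% of all genes passed without replicate 1 and replicate 2. Without CXCR6 Lo replicate 1 or replicate 2 none of the 37 genes and 0% of all genes passed. In each of these 4 fits a subset was left with 1 array, so a lost call does not show that a difference is absent. The methods' t-test on all arrays called 4 higher and 5 lower (25.8% of all genes). Other settings called a larger share of all genes and, of the 37 genes, 10 higher and 10 lower with genes under the 40th percentile of signal left out (62.2% of all genes tested) and 12 and 12 with a variance trend and robust fitting (45.6% of all genes). With 1 naive array, its spread was taken to equal that of the LP groups.

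**Figure D1:**
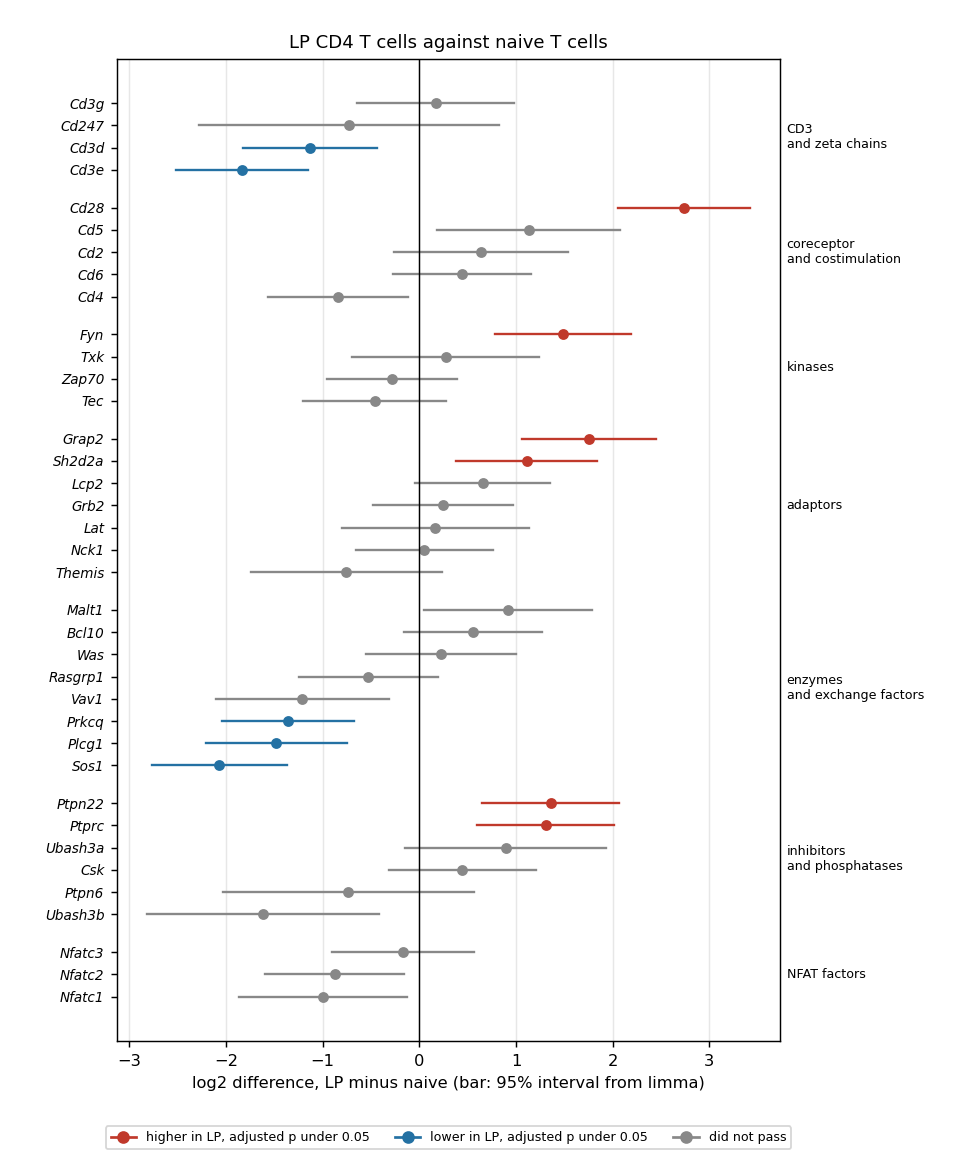
Log2 difference of signal, LP minus naive T cells, for the 37 genes (x axis), grouped by role (y axis). Points are limma estimates over 4 LP arrays and 1 naive array, bars are 95% intervals, and colours mark the 6 genes called higher, the 5 called lower and the 26 that did not pass.

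Of the 4 signalling chains of the receptor, Cd3e and Cd3d were lower in LP T cells, and Cd3g and Cd247 (the zeta chain) did not pass. The Cd3e signal (probe set 1422105_at) was 24.4 and 23.2 in CXCR6 Hi, 23.9 and 25.1 in CXCR6 Lo, and 86.1 in naive T cells. The 4 LP arrays sat close together, all below the naive array, and Cd3e was 3.56-fold lower (log2 difference -1.83 ± 0.24 SE, adjusted p = 0.0176). The Cd3d signal (1422828_at) was 68.5 and 67.2 in CXCR6 Hi, 50.2 and 45.4 in CXCR6 Lo, and 125 in naive T cells. It was 2.19-fold lower in LP T cells (log2 -1.13 ± 0.24 SE, adjusted p = 0.0396), and all 4 LP arrays were below the naive array, the CXCR6 Lo arrays furthest. Against naive T cells alone, Cd3d passed for CXCR6 Lo (log2 -1.39, adjusted p = 0.0362) and did not for CXCR6 Hi (log2 -0.88, adjusted p = 0.0843). The Cd3g signal (1419178_at) was 129 and 167 in CXCR6 Hi, 97.8 and 93.7 in CXCR6 Lo, and 105 in naive T cells. The naive array thus lay between the subsets, and the LP difference was 0.17 on the log2 scale (95% interval -0.64 to 0.98, adjusted p = 0.670). With quantile normalization the value for Cd3g turned to -0.27 and still did not pass. Cd247 (1426396_at) had 20.6 and 46.0 in CXCR6 Hi, 23.8 and 27.3 in CXCR6 Lo, and 46.4 in naive T cells. The CXCR6 Hi arrays of Cd247 stood far apart, and its log2 difference of -0.73 had an interval of -2.28 to 0.82. A dimmer Cd247 probe set (1452539_a_at), at 0.572 to 1.57 in the LP arrays and 11.8 in naive T cells, was lower in the fit over all probe sets (log2 -3.80, adjusted p = 0.0315). In bulk RNA, fewer cells of a type and less RNA per cell cannot be told apart. All cells were gated on CD3 and CD4 protein, so the sort itself involved the products of these genes and of Cd4.

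**Figure D2:**
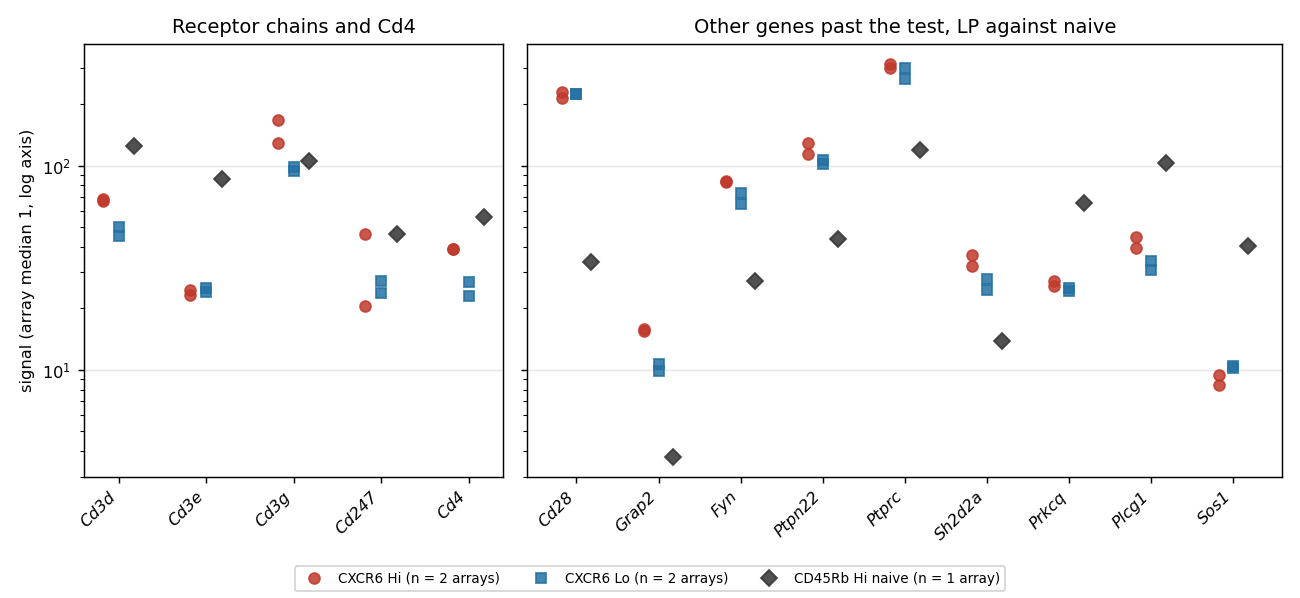
Signal of each array (y axis, log scale, array median 1) for the 4 CD3 and zeta chains and Cd4 and for the other 9 genes called in LP against naive T cells (x axis). Each mark is 1 array, and all 4 LP arrays lie on the same side of the naive array for every gene shown except Cd3g.

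Cd4, the coreceptor for MHC class II, had signals of 39.2 and 39.1 in CXCR6 Hi, 27.0 and 22.9 in CXCR6 Lo, and 56.0 in naive T cells (1419696_at). All LP arrays were below the naive array, but the log2 difference of -0.84 ± 0.25 SE did not pass (adjusted p = 0.0776). Cd28, the main costimulatory receptor, had 215 and 230 in CXCR6 Hi, 224 and 223 in CXCR6 Lo, and 33.5 in naive T cells (1417597_at). The 4 LP arrays nearly coincided, and Cd28 was 6.66-fold higher (log2 2.73 ± 0.24 SE, adjusted p = 0.0124), the largest difference among the 37 genes. Its other probe set was also higher, by 1.37 on the log2 scale (adjusted p = 0.0420 in a fit over all probe sets). Cd5, a receptor that dampens the signal, had 107 and 86.2 in CXCR6 Hi, 89.5 and 64.7 in CXCR6 Lo and 39.1 in naive T cells, and its log2 difference of 1.13 did not pass (adjusted p = 0.0736). It passed with quantile normalization (log2 1.43). The adhesion receptor Cd2 and the Cd5 relative Cd6 had log2 differences of 0.64 and 0.44 and did not pass.

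Among the 4 kinases, Fyn was higher and Zap70, Txk and Tec did not pass on the probe sets used. Fyn, a Src family kinase that phosphorylates the CD3 and zeta tails, had 83.5 and 83.4 in CXCR6 Hi, 64.8 and 73.1 in CXCR6 Lo, and 27.1 in naive T cells (1417558_at). All LP arrays were above the naive array, 2.80-fold on average (log2 1.49 ± 0.24 SE, adjusted p = 0.0249). A further Fyn probe set (1448765_at) lay the other way at -0.53 and did not pass, and with the mean of the probe sets Fyn was at 0.48 and the call was lost (adjusted p = 0.245). Zap70 (1440178_x_at) had 24.6 and 25.3 in CXCR6 Hi, 30.6 and 30.2 in CXCR6 Lo, and 33.5 in naive T cells. Its log2 difference was -0.28 with an interval of -0.96 to 0.39. The Zap70 set 1422701_at had 28.9 and 28.9 in CXCR6 Hi, 22.9 and 18.2 in CXCR6 Lo, and 9.55 in naive T cells. That set was higher in the limma fit over all probe sets (log2 1.35, adjusted p = 0.0429), and 1439749_at did not pass (-0.67). The Tec family kinases Txk and Tec were at 0.27 and -0.46.

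Of the 7 adaptors, Grap2 and Sh2d2a were higher in LP T cells and none was lower on the probe sets used. Grap2 (GADS), which joins Lcp2 to Lat, had 15.8 and 15.4 in CXCR6 Hi, 10.7 and 9.81 in CXCR6 Lo, and 3.74 in naive T cells (1420685_at). The order CXCR6 Hi, CXCR6 Lo, naive held for every array, and Grap2 was 3.38-fold higher in LP T cells (log2 1.76 ± 0.24 SE, adjusted p = 0.0189). Sh2d2a (TSAd), an SH2 domain adaptor of activated T cells, had 32.4 and 36.3 in CXCR6 Hi, 27.7 and 24.5 in CXCR6 Lo, and 13.8 in naive T cells (1449105_at). It was 2.16-fold higher (log2 1.11 ± 0.25 SE, adjusted p = 0.0455), close to the threshold, and passed for CXCR6 Hi (adjusted p = 0.0439) but not for CXCR6 Lo (adjusted p = 0.0862). Lat, Lcp2, Grb2, Nck1 and Themis did not pass, with log2 differences from -0.76 in Themis to 0.66 in Lcp2. In the limma fit over all probe sets, a further Grb2 set was lower (log2 -3.79, adjusted p = 0.0168). A further Themis set was higher in that fit (log2 3.47, adjusted p = 0.0150).

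Plcg1, Prkcq and Sos1 were lower among the 8 enzymes and exchange factors, and none was higher. Sos1, an exchange factor that loads Ras with GTP, had 9.38 and 8.40 in CXCR6 Hi, 10.4 and 10.3 in CXCR6 Lo, and 40.2 in naive T cells (1434389_at). It was 4.2-fold lower in LP T cells (log2 -2.07 ± 0.24 SE, adjusted p = 0.0159), the largest fall among the 37 genes. With the mean of its probe sets the difference was -1.13 and did not pass (adjusted p = 0.118). Plcg1, the phospholipase that makes the messengers for calcium and protein kinase C, had 44.7 and 39.3 in CXCR6 Hi, 30.9 and 33.9 in CXCR6 Lo, and 103 in naive T cells (1435149_at). It was 2.79-fold lower (log2 -1.48 ± 0.25 SE, adjusted p = 0.0261), and with the mean of its probe sets, among them very dim ones, it was at -0.43 (adjusted p = 0.273). Prkcq (protein kinase C-theta), which acts on the route to NF-kB, had 27.2 and 25.7 in CXCR6 Hi, 25.1 and 24.4 in CXCR6 Lo, and 65.7 in naive T cells (1426044_a_at). It was 2.57-fold lower (log2 -1.36 ± 0.24 SE, adjusted p = 0.0271), with the LP arrays in a narrow band.

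The partners of Prkcq downstream, Bcl10 and Malt1, did not pass and lay above the naive array on every LP array on the probe sets used. Malt1 had 60.1 and 45.1 in CXCR6 Hi, 63.7 and 55.5 in CXCR6 Lo and 29.4 in naive T cells (log2 0.92, adjusted p = 0.0924). Bcl10 had a log2 difference of 0.56, but its probe sets disagreed. Its sets 1418971_x_at and 1443524_x_at were below the naive array on every LP array (-0.29 and -0.81), and the dim 1418972_at was above (0.63). None of these passed, and with the mean of the probe sets Bcl10 was at 0.02. Vav1, a guanine nucleotide exchange factor, had 13.5 and 15.8 in CXCR6 Hi, 17.1 and 12.6 in CXCR6 Lo and 33.9 in naive T cells. Every LP array of Vav1 was below the naive array, at a log2 difference of -1.21 (adjusted p = 0.0566). Rasgrp1 and Was were at -0.53 and 0.22.

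Of the 6 inhibitors and phosphatases, a group in which not every phosphatase need restrain the signal, Ptpn22 and Ptprc were higher and none was lower. Ptpn22, a phosphatase that acts on Src family kinases and Zap70, had 114 and 128 in CXCR6 Hi, 106 and 101 in CXCR6 Lo, and 43.7 in naive T cells (1417995_at). All LP arrays were above the naive array, 2.56-fold on average (log2 1.36 ± 0.25 SE, adjusted p = 0.0291). Ptprc (CD45), which all white blood cells carry, had 302 and 315 in CXCR6 Hi, 299 and 265 in CXCR6 Lo, and 119 in naive T cells (1422124_a_at). It was 2.47-fold higher (log2 1.31 ± 0.25 SE, adjusted p = 0.0313), and a further probe set was higher by 2.65 on the log2 scale, but with quantile normalization the difference was 0.65 and did not pass (adjusted p = 0.0983). The naive cells were gated on CD45RB, an isoform of the Ptprc product, so the sort touches this gene. Ubash3b (Sts-1), a phosphatase that restrains Zap70, had 2.40 and 3.98 in CXCR6 Hi, 3.61 and 4.80 in CXCR6 Lo and 11 in naive T cells. The LP arrays of Ubash3b were all below the naive array, at -1.62 on the log2 scale (adjusted p = 0.0571). The mean of its probe sets passed as lower (adjusted p = 0.0372), as did its probe set 1436805_at in the fit over all probe sets (log2 -3.02, adjusted p = 0.0155). Its relative Ubash3a was at 0.89 and did not pass. Ptpn6 (SHP-1) and Csk, which both restrain Src family kinases, were at -0.73 and 0.44 and did not pass, while Csk passed with quantile normalization (log2 1.06, adjusted p = 0.0451).

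No NFAT factor passed on the probe set used. Nfatc1 had 21.4 and 24.1 in CXCR6 Hi, 19.8 and 26.7 in CXCR6 Lo and 45.7 in naive T cells, a log2 difference of -1.0 (adjusted p = 0.0781). Nfatc2 was at -0.88 (adjusted p = 0.0697) and Nfatc3 at -0.17. In the limma fit over all probe sets, further sets of Nfatc1 (1425761_a_at, log2 2.43, adjusted p = 0.0218) and Nfatc3 (1452497_a_at, log2 1.83, adjusted p = 0.0415) were higher. A very dim Nfatc2 set (1426031_a_at) was lower in that fit (log2 -1.39, adjusted p = 0.0455).

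By subset, 6 genes were higher and 4 lower in CXCR6 Hi than in naive T cells (13.2% and 15.3% of all genes, 28.6% together, and 11.9% and 22.3% of the genes as bright). In CXCR6 Lo, 5 were higher and 5 lower (12.8% and 16.7% of all genes, 29.5% together, and 9.81% and 25.5% of the genes as bright). Both comparisons use the same naive array. The genes were the 11 described above without Cd3d for CXCR6 Hi and without Sh2d2a for CXCR6 Lo. All calls of both comparisons were lost in limma when any of the 4 LP arrays was left out, as was so over all genes. Each such fit left a subset without a replicate, so a lost call does not show that a difference is absent. The methods' t-test on all arrays gave 0 calls among the 37 genes in either comparison (0.187% and 0.0879% of all genes).

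Between the subsets, no member of the receptor complex or its signalling steps passed. The lowest adjusted p in limma was 0.655, and 0% of all 18193 genes passed; the methods' t-test also called 0 of the 37 genes. At an unadjusted p under 0.05 there were 2 of the 37 genes, Rasgrp1 and Cd4, where 6.55% of all genes and 4% of the genes as bright reached this level. Rasgrp1, a Ras exchange factor that diacylglycerol recruits, had 83.2 and 87.1 in CXCR6 Hi, 47.0 and 40.8 in CXCR6 Lo, and 88.1 in naive T cells (1434295_at). The CXCR6 Hi arrays were near the naive array and both CXCR6 Lo arrays below it. The difference between the subsets was 0.96 ± 0.22 SE on the log2 scale (95% interval 0.32 to 1.60, unadjusted p = 0.0153 from limma). Cd4 had a difference of 0.65 ± 0.23 SE (interval 0.00 to 1.31, unadjusted p = 0.0493 from limma), with both CXCR6 Hi arrays above both CXCR6 Lo arrays.

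The 37 genes leaned towards CXCR6 Hi with values scaled to the array median, as did other bright genes. The log2 difference was above 0 for 27 of them (57.5% of all genes, 72.5% of the genes as bright), with a median of 0.27 against 0.08 over all genes and 0.16 over the genes as bright. Both CXCR6 Hi arrays lay above both CXCR6 Lo arrays for 21 genes (25.1% of all genes, 39% of the genes as bright). They lay below them for 2, Zap70 and Sos1 (14.3% and 8.29%). On the Zap70 probe set 1422701_at the order was the reverse (28.9 and 28.9 in CXCR6 Hi, 22.9 and 18.2 in CXCR6 Lo). With quantile normalization the median was 0.03, and the counts were 8 above and 9 below (17.5% and 21.1% of all genes). At that scaling Rasgrp1 was at 0.67 and Cd4 at 0.41. For Cd28 and Cd3e, which differed from naive T cells in both subsets, the difference between the subsets was -0.01 (interval -0.62 to 0.60) and -0.04 (-0.66 to 0.57).

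**Figure D3:**
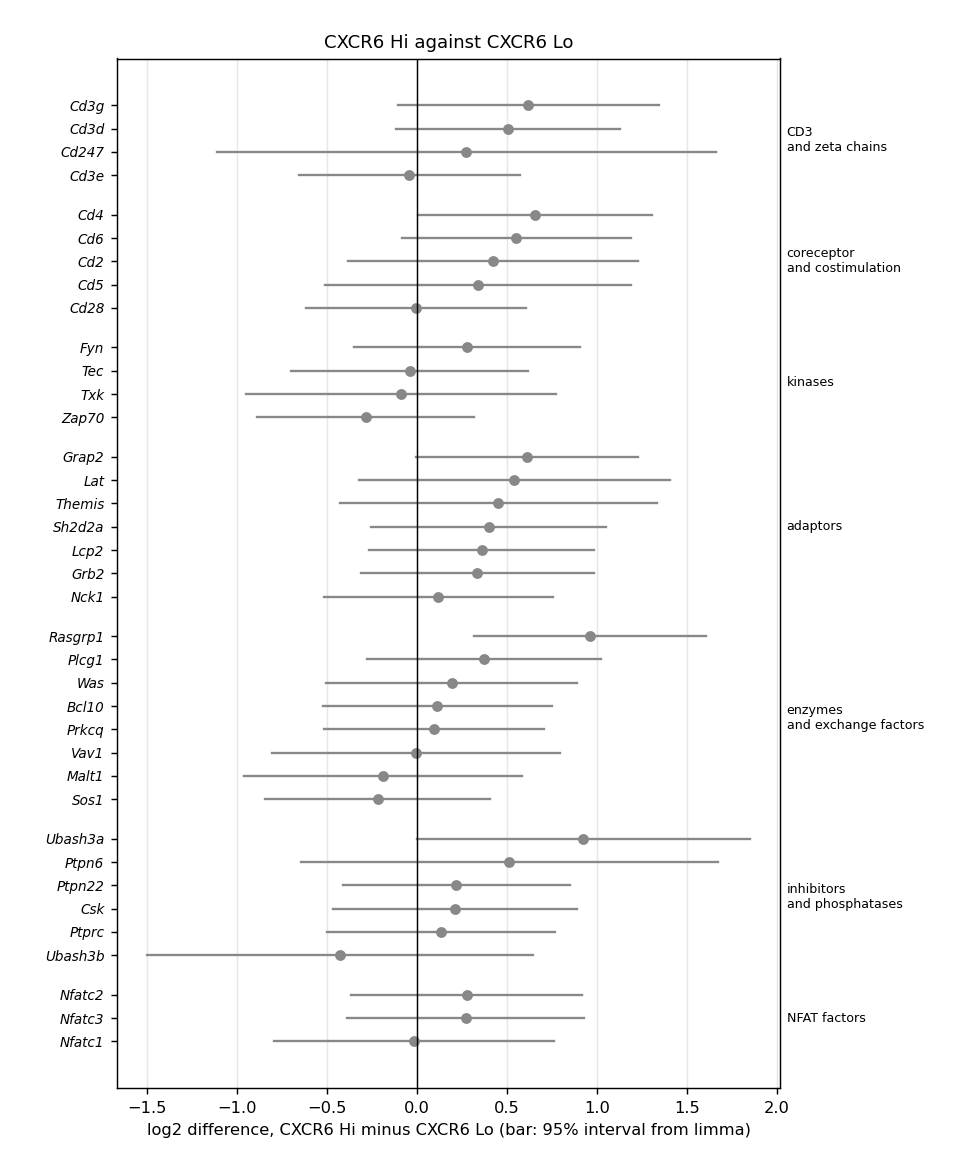
Log2 difference of signal, CXCR6 Hi minus CXCR6 Lo (x axis), for the 37 genes grouped by role (y axis). Points are limma estimates over 2 arrays in each subset and bars are 95% intervals; 27 points lie above 0 and no gene passed after adjustment.

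A wider list of T cell receptor signalling genes held 52 genes, of which 43 were analysed here. Against naive T cells 9 were higher and 9 lower in LP T cells and 25 did not pass, or 41.9% called against the 33.9% of all genes. Among genes with a mean signal of at least 4, which most but not all of the 43 genes reached, 40.8% were called. The higher genes with the largest differences were the ubiquitin ligase Cblb, which restrains the signal (log2 2.75 ± 0.28 SE), the adaptor Crkl (2.66 ± 0.33), the transmembrane adaptor Trat1 (2.37 ± 0.34) and the small GTPase Rap1a (1.93 ± 0.29). Cblb had 213 to 277 on the LP arrays and 36.6 in naive T cells. The lower genes with the largest differences were the exchange factor Vav2 (-4.70 ± 0.27), the adaptors Lax1 (-3.55 ± 0.50) and Nck2 (-3.52 ± 0.25), and the phosphatase Ptprj (-3.11 ± 0.61). Vav2 had 0.748 to 0.956 on the LP arrays and 22.9 in naive T cells, and Ptprj had 0.347 to 0.877 and 4.06. These LP signals of Vav2 and Ptprj lie under the array median, so the direction was measured and the size and rank of the difference are uncertain. The adjusted p of these 8 genes ran from 0.0119 to 0.0335 in limma. Each was read from 1 probe set, and any further probe sets of these 8 genes were not compared individually. Fewer genes of the wider list were called without a CXCR6 Hi array and none without a CXCR6 Lo array, as was so over all genes.

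Many of these genes are read by more than 1 probe set, and the sets did not always move together. Of the 37 genes, 23 had further probe sets, and 37 of these 46 had a mean signal of at least 1. Against naive T cells 19 of them lay on the same side as the probe set used and 18 on the opposite side, and over the 8675 further probe sets of all genes at this level 60.8% lay on the same side. In a fit over all 34945 probe sets, added after the values had been seen, 7 of the 37 probe sets were higher, 4 lower and 26 did not pass. Of the further probe sets of all genes 37.7% passed, 14.4% as higher and 23.3% as lower. Of the 11 that passed, 5 went the other way from the probe set used, and those used had not passed. Themis, an adaptor that sets signal strength in T cell development, had 39.5 and 40.9 in CXCR6 Hi, 31.3 and 31.3 in CXCR6 Lo and 3.19 in naive T cells on probe set 1443192_at (log2 3.47, adjusted p = 0.0150). On the probe set used (1436423_at) the values were 26.6, 40.5, 23.4 and 24.6 in the LP arrays and 47.4 in naive T cells, or -0.76 on the log2 scale. Grb2, the adaptor that carries Sos1, had 3.0 to 5.05 in the LP arrays and 56.3 in naive T cells on probe set 1418508_a_at (log2 -3.79, adjusted p = 0.0168), against 0.24 on the one used. The other cases were Nfatc1 (2.43 against -1.0), Nfatc3 (1.83 against -0.17) and Zap70 (1.35 against -0.28). The Zap70 and Nfatc3 probe sets used carry the suffixes of sets that can match other transcripts. For these 5 genes the direction against naive T cells thus depended on the probe set. Which transcript parts the sets read was not analysed here.

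**Figure D4:**
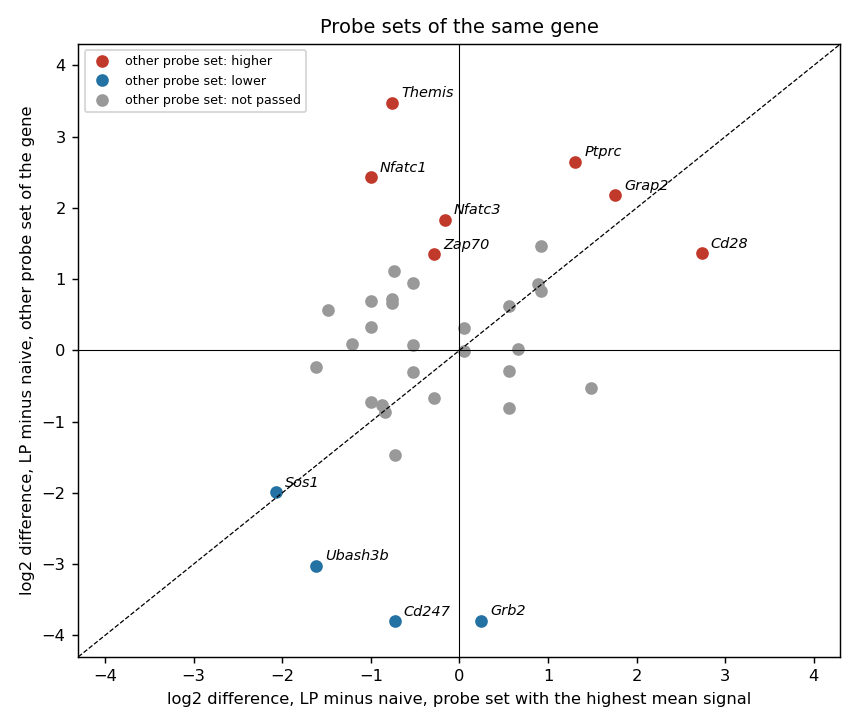
Log2 difference, LP minus naive, of 37 further probe sets, each at a mean signal of 1 or more (y axis) against that of the probe set used for the same gene (x axis). Each point is 1 probe set, the dashed line marks equal values, and the 11 named points passed in the fit over all probe sets.

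The arrays differed in more than these genes. Across the 37 genes, LP arrays correlated with each other at 0.938 to 0.977 (Spearman, over genes, which are not independent) and with the naive array at 0.613 to 0.637. An added poly-A control RNA (Dap) had 64.6 to 102 on LP arrays against 0.194 in naive T cells, and the 3′ to 5′ ratio of Gapdh was 2.81 to 6.96 against 1.51, so sample preparation and group cannot be told apart. Summed over 7 B cell markers the signal was 4.65 to 5.68 in LP and 55.1 in naive T cells, and 4 were lower and 1 higher in LP. Over 3 NK cell markers it was 2.34 to 38.2 against 66.9 (2 lower, 0 higher), with Eomes at 13.0 and 36.5 in CXCR6 Lo and 1.38 and 2.32 in CXCR6 Hi, and Ncr1 at 0.685 or less on every LP array. For 8 stromal markers it was 95.6 to 153 against 24.0 (4 higher, 2 lower), with Dcn at 41.5 to 86.4 against 2.19. Of 10 epithelial markers, 7 were above the naive array on all 4 LP arrays, with Krt8 at 9.36 to 29.6 against 0.387, and 2 passed as higher and 1 as lower. Their sum was 46.5 to 96.1 in LP and 106 in naive T cells, and without Car1, the brightest of them there, 36.8 to 80.1 and 20.5. Of 12 myeloid markers, 6 were above and 6 below the naive array on all LP arrays, and 3 passed in each direction. Cd14 (58.5 to 93.0 against 1.95), Lyz2 (127 to 157 against 49.0) and Csf1r (54.2 to 71.2 against 26.1) were higher, and S100a9 (3.12 to 5.80 against 114), S100a8 (9.38 to 22.0 against 61.2) and Fcer1g (1.80 to 3.30 against 40.8) were lower, in a sum of 284 to 361 against 368. These sums add probe sets of different brightness and are carried by a few of them. Cd8a and Cd8b1 together were at 5.09 or less on all arrays. Of 9 T cell markers, 7 of them among the 37 genes, 4 were above and 4 below the naive array on all LP arrays. Trat1 passed as higher (144 to 274 on LP arrays against 41.1), and Cd3d and Cd3e passed as lower. The sum of the 9, which Trat1 raises on the LP arrays, was 895 to 1024 in CXCR6 Hi, 618 to 741 in CXCR6 Lo and 651 in naive T cells. The part of other cell types in the values above was not tested.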

How the data were processed

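The authors hybridized RNA of 5 samples to Affymetrix whole-genome mouse arrays and processed them in GeneSpring, and RMA is named in the submitters' processing notes. The authors deposited 45101 probe sets as linear intensity values, with the median of every array at 1. Gene names came from GEO's platform annotation: 34945 probe sets had 1 gene symbol, 932 several and 9211 none, and 34741 matched RefSeq. Each of 18193 genes was read from its brightest probe set (highest mean over the arrays). Signals were log2 transformed, with 2 signals of 0 set to 0.001, and fitted over the 3 groups with limma 3.58.1 in R 4.3.3, with Benjamini-Hochberg adjustment over all genes and 2 residual degrees of freedom. The number of arrays limits the precision: the median absolute log2 gap between replicates of genes with a signal of 16 or more was 0.23 in CXCR6 Hi and 0.17 in CXCR6 Lo. The fit was tested on simulated data.

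Groups came from the labels. Genes named in full were the receptor chains, Cd4, each gene that passed in any of 4 comparisons, and the 5 others with the largest difference between LP and naive T cells. Of the wider list, up to 4 genes in each direction were named, and between the subsets those at an unadjusted p under 0.05. The members and lists were chosen with earlier results of these data known. Alternatives were the mean of probe sets, no _s_at or _x_at probe sets, a filter, quantile normalization, log2 of the signal plus 1, a floor at 1, a replicate block, a robust fit with a variance trend, fits without each LP array, the methods' t-test and a fold of at least 2. The fit over all probe sets was added after seeing the data. Promoter windows were cut to the bases before the gene's annotated extent. Plots were drawn with matplotlib 3.10.9.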

Additional observations from a re-analysis of the deposited data

Results flagged for a closer look

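With values scaled to the array median, Cd3g stood on opposite sides of the naive array in the subsets. Signals of 129 and 167 in CXCR6 Hi were above, and 97.8 and 93.7 in CXCR6 Lo below, the 105 of naive T cells. Over the settings run, the log2 difference from naive T cells ran from -0.10 to 0.67 in CXCR6 Hi, with the sign changed in 1 setting. In CXCR6 Lo it ran from -0.45 to -0.11. LP arrays lay on both sides of the naive array for 6 of the 37 genes and 4392 of all 18193 genes. The difference between the subsets was 0.62 on the log2 scale and did not pass in limma (unadjusted p = 0.0763, adjusted p = 0.761). This comparison of the subsets is also the test of whether their differences from naive T cells differ, since the same naive array enters both.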

How the results depend on the processing

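Of the 11 genes called in LP against naive T cells, Cd28 and Cd3e passed in 10 of 10 settings that kept all arrays, and Prkcq, Ptpn22 and Sos1 in 9. Fyn, Plcg1, Grap2 and Ptprc passed in 8, Cd3d in 7 and Sh2d2a in 6, and none of the 11 turned direction in any setting run. Against 6 genes higher and 5 lower in LP T cells, there were 10 and 10 with the 40th percentile filter (62.2% of all genes tested). There were 11 and 10 with log2 of the signal plus 1 (43.4%) and 12 and 12 with a variance trend and robust fitting (45.6%). A fixed replicate block gave 1 and 2 (19.3% of all genes). For CXCR6 Hi against naive, 6 and 4 became 12 and 9 with the filter (57.9% of all genes tested). They became 13 and 9 both with the signal plus 1 (39.9% of all genes) and with the trend (41.9%). They became 0 and 0 with the replicate block (0%) and with the methods' t-test (0.187%). For CXCR6 Lo against naive, 5 and 5 became 8 and 12 with the filter (59.1% of all genes tested). The same 8 and 12 came with the signal plus 1 (40.3% of all genes) and with the trend (42.7%). There were 0 and 0 with the replicate block (0%) and with the methods' t-test (0.0879%). In that comparison 3 were higher with the mean of probe sets (8.64% of all genes) and with the fit over all probe sets (11.2%). With a floor at 1, 8 were lower (17.1% of all genes). Leaving out each LP array gave 0 to 1 higher and 0 to 0 lower for LP, and 0 to 0 in either direction for each subset. Between the subsets 0 passed in any setting run. In the wider list, 9 higher became 5 with the mean of probe sets (10.9% of all genes), 14 with the trend (19.5%) and 3 with the replicate block (9.37%). Its 9 lower became 5 with quantile normalization (12.7% of all genes) and 4 with the replicate block (9.93%).

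Some genes that did not pass above changed sign between LP and naive T cells. With quantile normalization Cd3g was at -0.27, Zap70 at 0.20 and Tec at 0.15. With the mean of probe sets Zap70 was at 0.13, Grb2 at -1.77, Themis at 1.03, Rasgrp1 at 0.045, Ptpn6 at 0.19, Nfatc1 at 0.35 and Nfatc3 at 0.83, and of these Grb2 passed as lower (adjusted p = 0.0335). Without _s_at and _x_at probe sets Zap70 was at 1.35 and Nfatc3 at 1.83, both passing as higher. The cause was not tested, other than that these last 2 settings use other probe sets.

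The labels do not say that a replicate number marks a shared batch, and deviations of same-numbered arrays correlated at 0.019 across all genes, over 2 pairs only. Some epithelial markers were higher on replicate 2 in both subsets, such as Krt8 (9.36 and 25.4 in CXCR6 Hi, 10.3 and 29.6 in CXCR6 Lo). A random replicate block was not run, since 2 residual degrees of freedom gave no estimate of its correlation. The fixed replicate block kept 1 gene higher and 2 lower.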
